A study of Homo sapiens with 3 samples.

Results

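The genes described here are those that the deposited annotation places in the pathway "Ribosome biogenesis in eukaryotes", leaving out XPO5 and DROSHA. They number 73 of the 15625 genes in the table. They were measured by RNA-seq in HCT116 cells, an established human colorectal cancer line, in 2 libraries labelled sh_circRAPGEF5 (shRNA against the circular RNA circRAPGEF5; knockdown libraries 1 and 2) and 1 library labelled sh_control. All 3 libraries share the cell line, the transfection with a purchased shRNA system, a harvest at 36 or 48 h and the genotype label MT. Neither the harvest time of each library nor the meaning of MT is given, nor whether the knockdown libraries are separate hairpins, cultures or repeats.

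Ribosome biogenesis begins in the nucleolus, where RNA polymerase I makes the ribosomal RNA precursor. Small nucleolar ribonucleoproteins (snoRNPs) guide its modification, the small subunit processome folds and cleaves it, and RNase MRP, exonucleases, GTPases and ATPases finish the subunits, which are then exported to the cytoplasm. Growing cancer cells depend on this route, and transcription factors of the MYC family are known to activate many of its genes. In the deposited GO annotation, 48 of the 73 genes (65.75%) carry the term nucleolus, against 762 of 15552 other genes (4.9%). GO and pathway entries draw on the same knowledge, so this describes the list and is not a separate finding.

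Expression is in FPKM, which divides the fragments of a gene by its length and by the size of the library, so levels can be compared between genes. Relative depth, recovered from ratios of the deposited values, was 1.014 and 1.075 times the control in knockdown libraries 1 and 2. The smallest whole reads that give these values summed to 14832142 and 15758794, against 14632390 in the control. These sums are lower bounds and not the true depth. Of 8 epithelial markers, EPCAM, CDH1, KRT8, KRT18, KRT19 and CDX2 were above 1 FPKM on average, while VIL1 and LGALS4 were at or near 0, and all 8 summed to 2552 and 3882 FPKM in the knockdown libraries, against 2286 FPKM in the control. KRT8, KRT18 and KRT19 carried this sum. CDH1 had 20.3 and 26.7 FPKM in the knockdown libraries, against 33.1 FPKM in the control, while EPCAM (170.0 and 191 FPKM, against 176 FPKM) and CDX2 had the control between them. The 2 fibroblast markers in the table summed to 4.71 and 8.43 FPKM, against 13.5 FPKM, nearly all of it COL1A1. The 4 leukocyte markers summed to 3.67 and 7.84 FPKM, against 1.38 FPKM, mostly CD68, with PTPRC at 0 in knockdown library 1 and the control. The 2 endothelial markers summed to 0.180 and 0.0453 FPKM, against 0.216 FPKM. The part of these differences in the results was not tested. RAPGEF5, the host gene of the circular RNA, was at 1.33 and 2.73 FPKM in knockdown libraries 1 and 2, against 1.98 FPKM in the control. This is the linear transcript, so it does not check the knockdown of the circle.

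Most ribosome biogenesis genes stood higher in both knockdown libraries than in the control. Summed over the 73 genes, expression was 3551 and 3927 FPKM in knockdown libraries 1 and 2, against 2788 FPKM in the control, or 1.27 and 1.41 times the control. Genes were tested if their mean over the 3 libraries was at least 1 FPKM, and 70 of the 73 passed this filter. Among these 70, 52 (74.3%) were higher in both knockdown libraries, against 31.7% of the 11216 genes tested. A further 6 were lower in both (8.57%, against 37.6% of genes tested), and 12 had the control between the knockdown libraries (17.1%, against 30.7%). The genes that missed the filter were FBLL1, a fibrillarin-like gene, SPATA5, an ATPase of large subunit maturation, and NXF3, an export factor gene, none above 0.817 FPKM in any library. Over all 73 genes without the filter, 53 were higher and 6 lower in both. The same shares over all genes without the filter were not counted, so these counts describe the list alone.

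**Figure D1:**
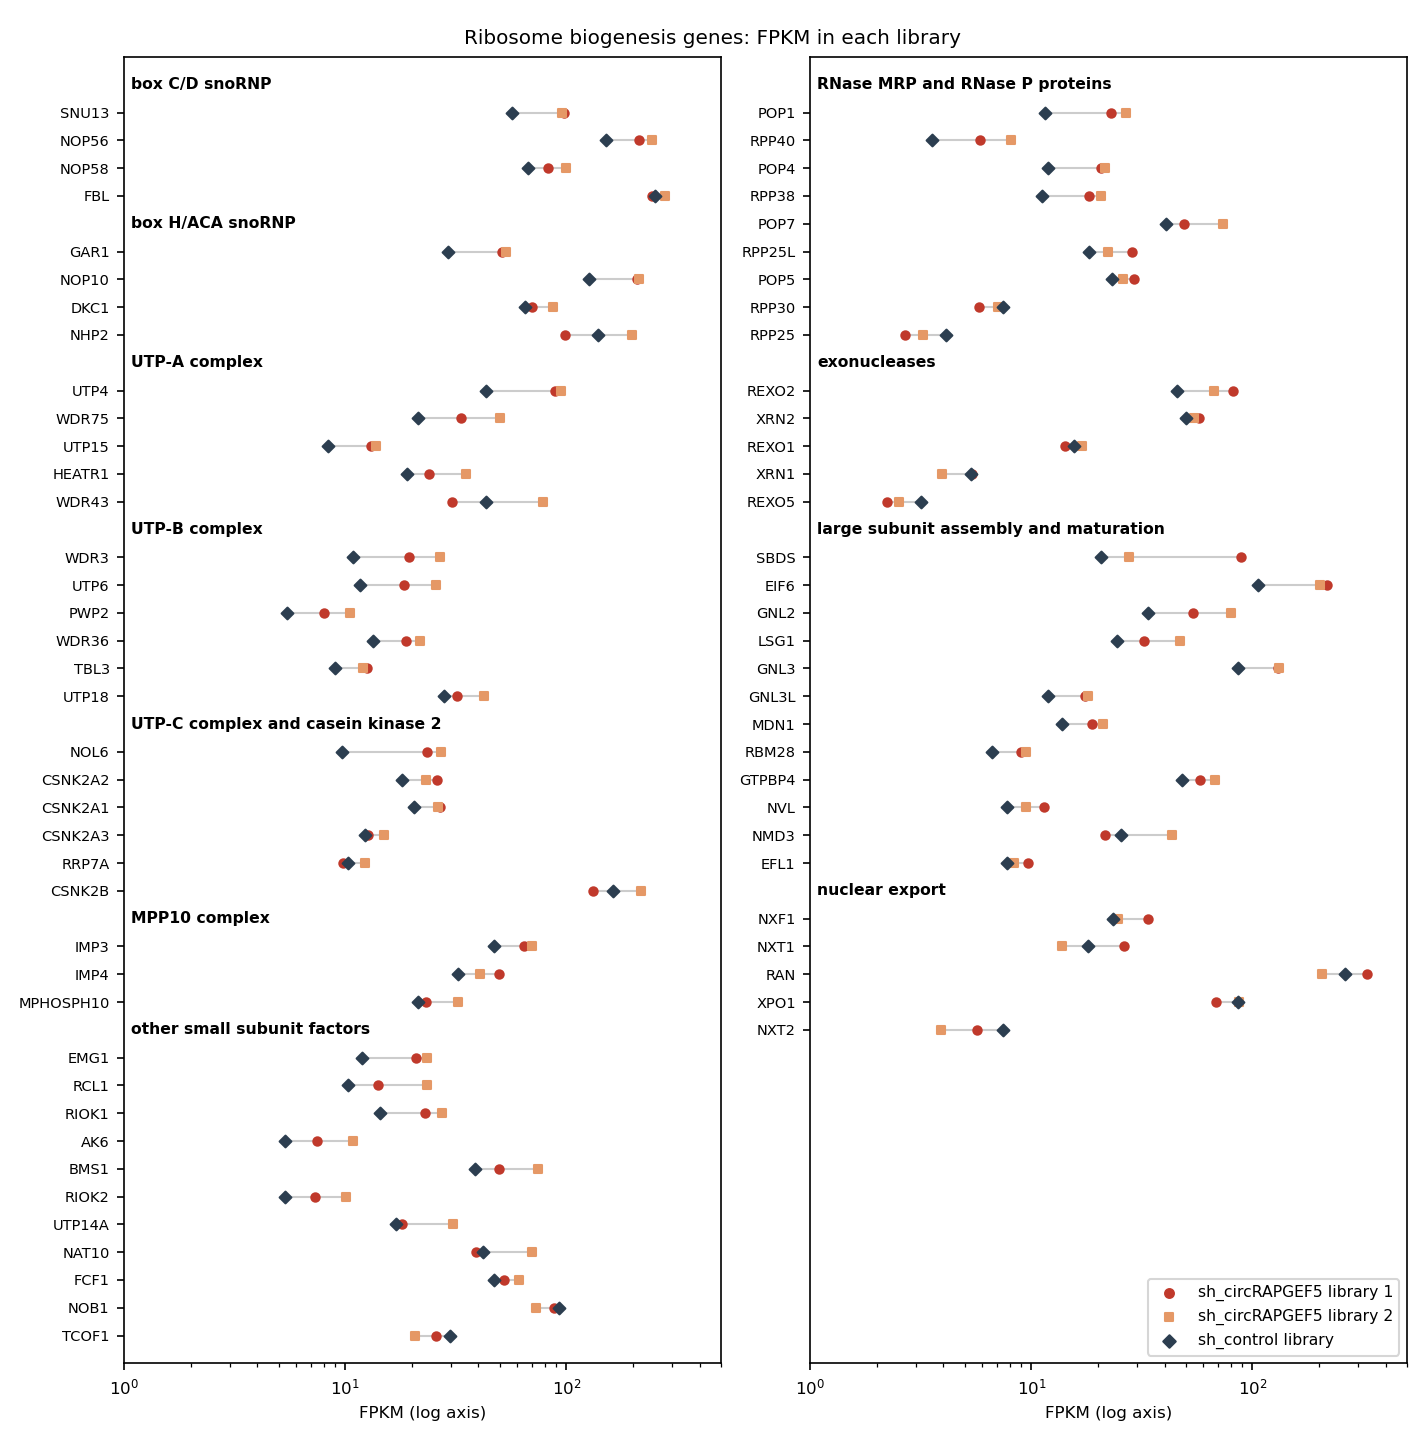
FPKM of the 70 tested ribosome biogenesis genes on a log axis, grouped by role and ordered by mean fold change. Red circles and orange squares are knockdown libraries 1 and 2, dark diamonds the control, and grey lines span the 3 values. The control is the lowest of the 3 values for 52 genes.

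Differences are given as log2 of FPKM + 1, knockdown minus control, a scale that understates the change of weakly expressed genes. The median over the 70 genes was 0.45 (0.40 in knockdown library 1 and 0.57 in knockdown library 2), against -0.05 over all genes tested. Among genes with a mean of at least 5 FPKM, it was 0.46 for the list, against 0.02 over all genes. The values over all genes tested are not matched to the list for expression level, and the part of this was not tested. At least 1.5-fold higher in both libraries were 18 of the 70 (25.7%, against 5.52% of genes tested), and 0 were as much lower (against 7.4%). At least 2-fold higher in both were 2 genes, NOL6 and UTP4 (2.86%, against 1.21%), and 0 were as much lower (against 1.7%). In limma, 0 of the 70 passed an adjusted p of 0.05, as did 0.0178% of all genes, and their adjusted p ran from 0.546 to 0.999. Higher with an unadjusted p under 0.05 were 7 of the 70 (against 3.08% of genes tested), and lower were 0 (against 3.99%). Library 2 alone, without library 1, put 34 genes at 1.5-fold or more, a pseudocount of 5 lowered the count in both libraries to 11, and median-ratio rescaling raised the 7 to 11. Shares over all genes were not counted under these other settings, so the moved counts describe the 70 genes alone. Both fold changes share 1 control library, so a knockdown effect and a control that lay low for these genes cannot be told apart. Nor can a bulk value separate RNA per cell from the share of cells that express a gene.

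NOL6, a scaffold protein of the small subunit processome and the human counterpart of yeast Utp22, had 23.3 and 27.1 FPKM in knockdown libraries 1 and 2, against 9.70 FPKM in the control. Both knockdown values were over 2-fold the control and close to each other. The log2 fold change was 1.29 ± 0.41 (SE), with a limma unadjusted p of 0.00798 and an adjusted p of 0.546. The gene lies on chromosome 9, 33461441 to 33473930 (GENCODE v29, GRCh38, minus strand), and no exon of another gene overlaps its exons. UTP4, a WD-repeat protein of the UTP-A complex that binds the precursor first, had 88.6 and 94.2 FPKM in the knockdown libraries, against 43.3 FPKM in the control. Its log2 fold change was 1.06 ± 0.39 (SE), limma adjusted p 0.617. It lies on chromosome 16, 69131291 to 69231130 (plus strand), where exons of CHTF8 overlap it on the opposite strand.

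Promoters of 4 genes are shown to set motifs beside expression: NOL6 and UTP4, both at least 2-fold above the control, EIF6, the most abundant gene with an unadjusted p under 0.05, and WDR43, with the control between its knockdown values. Each is a RefSeq window (GRCh38.p14) of 300 bases, 250 before and 50 after the start, read 5′ to 3′ along the gene. Capitals mark the E-box CACGTG, a motif that MYC and related factors are known to bind, and the ETS site CCGGAAGT or its reverse complement ACTTCCGG, known to be bound by ETS factors. The windows are chr9:33473875-33474174 (minus strand) for NOL6, chr16:69132399-69132698 (plus) for UTP4, chr20:35284668-35284967 (minus, 1 of 2 windows) for EIF6 and chr2:28894417-28894716 (plus) for WDR43.
NOL6: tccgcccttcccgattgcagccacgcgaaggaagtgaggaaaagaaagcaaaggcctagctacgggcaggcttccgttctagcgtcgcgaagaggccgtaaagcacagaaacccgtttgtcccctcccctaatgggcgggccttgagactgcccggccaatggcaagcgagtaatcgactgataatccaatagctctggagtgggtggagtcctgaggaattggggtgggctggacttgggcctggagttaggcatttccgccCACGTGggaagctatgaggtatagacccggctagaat
UTP4: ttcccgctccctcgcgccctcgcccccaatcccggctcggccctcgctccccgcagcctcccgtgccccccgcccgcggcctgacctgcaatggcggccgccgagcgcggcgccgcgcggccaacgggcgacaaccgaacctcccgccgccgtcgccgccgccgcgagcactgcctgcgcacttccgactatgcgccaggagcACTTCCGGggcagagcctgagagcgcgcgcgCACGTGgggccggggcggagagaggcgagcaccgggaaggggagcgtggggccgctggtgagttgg
EIF6: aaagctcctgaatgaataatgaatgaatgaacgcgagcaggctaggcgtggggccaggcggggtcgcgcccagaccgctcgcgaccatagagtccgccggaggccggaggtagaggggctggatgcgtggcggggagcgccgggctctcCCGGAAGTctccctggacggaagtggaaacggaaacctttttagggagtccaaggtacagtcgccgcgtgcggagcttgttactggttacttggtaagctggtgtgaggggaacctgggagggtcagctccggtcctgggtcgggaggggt
WDR43: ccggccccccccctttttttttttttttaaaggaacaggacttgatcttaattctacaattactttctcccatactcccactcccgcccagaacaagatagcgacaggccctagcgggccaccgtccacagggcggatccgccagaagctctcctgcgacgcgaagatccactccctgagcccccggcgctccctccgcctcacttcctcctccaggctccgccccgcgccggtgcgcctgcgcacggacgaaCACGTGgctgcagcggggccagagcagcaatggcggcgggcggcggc
The E-box began at base 264 of the NOL6 window, base 235 of the UTP4 window and base 254 of the WDR43 window, all near the start. EIF6 had no E-box in this window and an ETS site at base 150. The UTP4 window held an ETS site as well, at base 204. Every window shown holds a marked motif, so they do not stand for the list. Of the other genes higher with an unadjusted limma p under 0.05, WDR3 and WDR75 had neither motif in their windows. GNL2 had an E-box, and POP1 has no matched window. WDR43 is 1 of the 4 genes with the widest gap between knockdown values lying around the control; the other 3, NHP2, NMD3 and NXT1, had no E-box in their windows, and none of the 4 had an ETS site.

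RefSeq promoters matched 68 of the 73 genes, in 78 windows, since some genes have several starts; MPHOSPH10, NOP58, POP1, SNU13 and TCOF1 are not among them. The E-box was in 23 of the 78 windows (29.5%), against 9.56% of 13447 windows of the genes tested and 7.26% of all 35116 windows. The ETS site was in 17 (21.8%), against 7.96% and 4.14%. The GC box GGGCGG was in 71.8% of windows, against 68.1% and 45.0%, and the NRF1 core GCATGCGC in 6.41%, against 4.94% and 3.05%. The TATA box TATAAA was in 2.56%, against 5.82% and 11.5%. All were searched on both strands, and median GC content was 64.2%, against 65.3% and 58.7%. Among genes at least 1.5-fold higher in both libraries, 6 of 19 windows had an E-box (31.6%), and among the other tested genes 17 of 56 (30.4%). For the ETS site these shares were 7 of 19 (36.8%) and 9 of 56 (16.1%). Windows of a gene can overlap, and the 2 EIF6 windows hold the same ETS site. Counted by gene, the ETS site was in 6 of 16 and 8 of 49, and the E-box in 6 of 16 and 16 of 49. These differences were not tested. A match describes the letters of the window and is not evidence of binding.

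**Figure D2:**
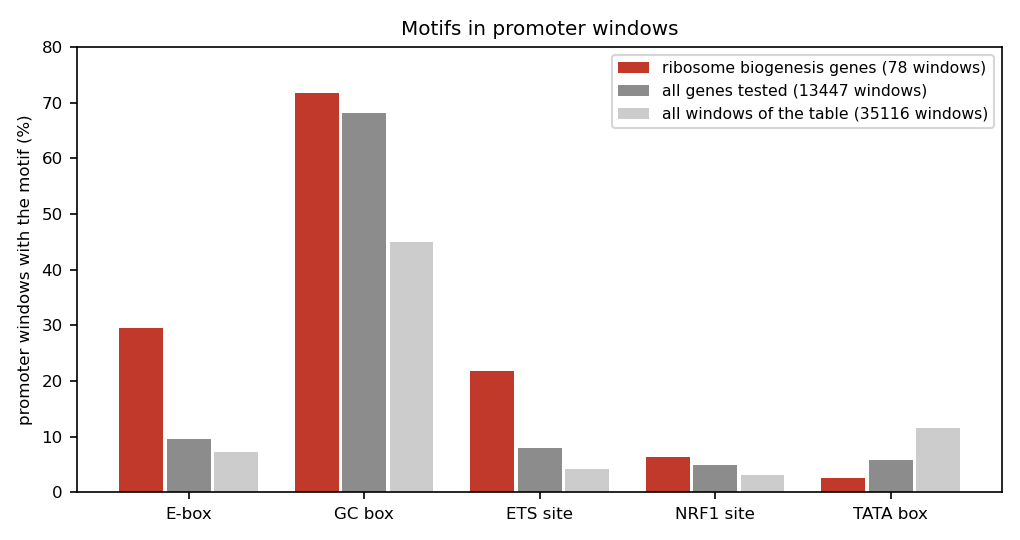
Share of promoter windows (%, linear axis from 0) that hold each of 5 motifs on either strand. Red bars are ribosome biogenesis genes, dark grey all genes tested and light grey all windows of the RefSeq table. The E-box reached 29.5%, 9.56% and 7.26%.

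The snoRNPs carry the enzymes that modify ribosomal RNA. In the box C/D particle, which adds methyl groups, SNU13, its RNA-binding core protein, had 97.7 and 95.6 FPKM in knockdown libraries 1 and 2, against 56.6 FPKM in the control. The scaffold NOP56 had 212 and 245 FPKM, against 151 FPKM, and its partner NOP58 had 82.2 and 99.9 FPKM, against 67.4 FPKM. The methyltransferase FBL differed from these, with 244 and 278 FPKM around a control of 251 FPKM. Its log2 fold change of 0.056 turned to -0.086 under quantile normalization. In the box H/ACA particle, which makes pseudouridine, the core proteins GAR1 and NOP10 were higher in both libraries, GAR1 at 50.9 and 53.6 FPKM against 29.1 FPKM. NOP10 had 208 and 213 FPKM, against 126 FPKM. DKC1, the pseudouridine synthase, had 69.6 and 86.6 FPKM, against 65.2 FPKM. NHP2, the fourth core protein, had 98.3 FPKM in library 1 and 197 FPKM in library 2, on opposite sides of 139 FPKM in the control (log2 fold change 0.0029 ± 0.47 (SE), limma adjusted p 0.999, and -0.18 under quantile normalization). In each particle, then, 3 of 4 genes were higher in both libraries and 1 had the control between them. NHP2 shares exon positions with RMND5B on the opposite strand and has 2 named pseudogenes, so its values are uncertain. The same holds for every gene with such neighbours or copies: of the 73 genes, 11 share exon positions with another gene on the same strand (CSNK2B, HEATR1 and GNL3 among them), 36 on the opposite strand (IMP3 among them) and 14 have named pseudogenes, and these sets overlap.

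The UTP-A complex binds the nascent precursor, and 4 of its 5 genes were higher in both libraries. WDR75 had 33.4 and 50.3 FPKM, against 21.2 FPKM in the control (log2 fold change 0.92 ± 0.42 (SE), limma unadjusted p 0.0485, adjusted p 0.706). UTP15 had 13.1 and 13.7 FPKM, against 8.34 FPKM, and HEATR1 had 23.9 and 35.0 FPKM, against 19.1 FPKM. WDR43 had 30.3 FPKM in library 1 and 78.1 FPKM in library 2, on both sides of 43.2 FPKM in the control, the widest gap between the libraries among the 12 genes placed this way (log2 fold change 0.17 ± 0.51 (SE), limma adjusted p 0.977). All 6 genes of the UTP-B complex, a further WD-repeat assembly of the processome, were higher in both. WDR3 led them, with 19.5 and 26.9 FPKM against 10.8 FPKM (log2 fold change 1.02 ± 0.42 (SE), limma unadjusted p 0.0314, adjusted p 0.643), and SPAG17 overlaps it on the opposite strand. UTP6 had 18.5 and 25.8 FPKM, against 11.6 FPKM, and PWP2, WDR36, TBL3 and UTP18 had log2 fold changes of 0.66, 0.57, 0.42 and 0.39.

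In the UTP-C complex NOL6 stood apart from its partners. RRP7A, which binds NOL6, had 9.77 and 12.2 FPKM, around 10.3 FPKM in the control. The subunits of casein kinase 2, a kinase that the complex shares with many other routes, differed less from the control than NOL6 did. CSNK2A1 had 26.9 and 26.2 FPKM, against 20.5 FPKM, and CSNK2A2 had 26.0 and 23.1 FPKM, against 18 FPKM. CSNK2B, the regulatory subunit, had 132 and 219 FPKM around 162 FPKM, and its log2 fold change of 0.066 turned to -0.094 under quantile normalization. CSNK2A3 (12.7 and 14.9 FPKM, against 12.3 FPKM) is an intronless copy of CSNK2A1, so reads may be split between them. All 3 genes of the MPP10 complex, which joins the precursor to the U3 snoRNA, were higher in both libraries, with IMP3 at 64.4 and 69.5 FPKM against 47.2 FPKM. IMP4 and MPHOSPH10 had log2 fold changes of 0.46 and 0.34.

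Of 11 other small subunit factors, 8 were higher in both libraries, 2 lower in both and 1 on both sides. EMG1, a ribosomal RNA methyltransferase, had 21.0 and 23.3 FPKM, against 11.8 FPKM, and the kinase RIOK1 had 22.9 and 27.4 FPKM, against 14.4 FPKM. The cyclase-like RCL1 had 14.0 FPKM in library 1 and 23.4 FPKM in library 2, against 10.3 FPKM. The GTPase BMS1 (49.8 and 74.2 FPKM, against 38.5 FPKM), the kinase RIOK2, the ATPase AK6 and UTP14A were likewise nearer the control in library 1. The acetyltransferase NAT10 had 38.8 and 69.6 FPKM around 42.1 FPKM. NOB1, the nuclease that makes the last cut of the small subunit RNA, had 87.4 and 73.1 FPKM, against 92.6 FPKM. TCOF1, treacle, which supports RNA polymerase I transcription, had 25.7 and 20.8 FPKM, against 29.6 FPKM. EMG1 shares exon positions with C1S on the same strand and AK6 with TAF9. BMS1 and FCF1 (log2 fold change 0.26) have 17 and 10 named pseudogenes. RIOK1, RIOK2, UTP14A and NOB1 share exon positions with another gene on the opposite strand. All of these are also uncertain.

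RNase MRP and RNase P, related RNA-protein enzymes that cut ribosomal and transfer RNA precursors, share most of their proteins. Of 9 genes, 7 were higher and 2 lower in both libraries. POP1, the largest protein of both enzymes, had 22.9 and 26.9 FPKM, against 11.5 FPKM (log2 fold change 1.05 ± 0.40 (SE), limma unadjusted p 0.0238, adjusted p 0.628). POP4 had 20.6 and 21.5 FPKM, against 11.9 FPKM, RPP38 had 18.3 and 20.7 FPKM, against 11.1 FPKM, and RPP40 had 5.84 and 8.07 FPKM, against 3.56 FPKM. POP7, RPP25L and POP5 had log2 fold changes of 0.56, 0.44 and 0.24. The lower genes were RPP30 (5.81 and 7.06 FPKM, against 7.47 FPKM) and RPP25, the paralog of RPP25L (2.67 and 3.22 FPKM, against 4.12 FPKM). Exonucleases remove nucleotides from RNA ends, and the 5 exonuclease genes of the list followed no single direction. REXO2, an oligoribonuclease, had 81.8 and 67.3 FPKM, against 45.8 FPKM. XRN2, the nuclear exonuclease that trims 5′ ends, had 57.2 and 54.6 FPKM, against 49.9 FPKM, and REXO5 had 2.23 and 2.52 FPKM, against 3.16 FPKM. REXO1 (log2 fold change -0.015, which turned to 0.070 under median-ratio rescaling) and the cytoplasmic XRN1 (-0.17) had the control between the libraries.

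Among 12 genes of large subunit assembly and maturation, 11 were higher in both libraries. EIF6, which keeps the large subunit from joining the small one too early, had 218 and 202 FPKM, against 106 FPKM in the control (log2 fold change 0.98 ± 0.40 (SE), limma unadjusted p 0.0296, adjusted p 0.641). SBDS, which releases EIF6 together with the GTPase EFL1, had 88.7 FPKM in library 1 and 27.5 FPKM in library 2, against 20.7 FPKM. That gap between the libraries made the log2 fold change of 1.22 ± 0.57 (SE) the least precise of the 70 genes. SBDS has a pseudogene copy, SBDSP1, that could take or give reads. EFL1 had 9.67 and 8.36 FPKM, against 7.75 FPKM. The nucleolar GTPase GNL2 had 53.9 and 79.9 FPKM, against 33.7 FPKM (log2 fold change 0.94 ± 0.41 (SE), limma unadjusted p 0.0418, adjusted p 0.692). Its relative GNL3, nucleostemin, had 130.2 and 132 FPKM, against 86.1 FPKM, and GNL3L had 17.6 and 18.1 FPKM, against 11.9 FPKM. The cytoplasmic GTPase LSG1, the ATPase MDN1, RBM28, GTPBP4 and the ATPase NVL had log2 fold changes of 0.65, 0.51, 0.42, 0.37 and 0.37. NMD3, the adaptor that brings the large subunit to the exporter XPO1, had 21.6 and 43.4 FPKM around 25.3 FPKM (log2 fold change 0.27 ± 0.46 (SE), limma adjusted p 0.939). EIF6 and GNL3 share exon positions with another gene on the same strand. GNL2, SBDS, LSG1, MDN1, RBM28, GTPBP4, NVL and NMD3 do so on the opposite strand. EFL1 and GNL3L have named pseudogenes, so every tested gene of this role is uncertain in this way.

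The export genes, which also serve transfer RNA, messenger RNA and protein transport, had a median log2 fold change of -0.0081. XPO1, the exporter of both subunits, had 68.4 and 87.1 FPKM around 85.8 FPKM in the control. RAN, the GTPase that drives export, had 331 FPKM in library 1 and 207 FPKM in library 2, around 263 FPKM; its log2 fold change of -0.0081 turned to 0.083 under median-ratio rescaling, and it has 9 named pseudogenes. The messenger RNA export receptor NXF1 had 33.8 and 24.8 FPKM, against 23.3 FPKM. Its cofactor NXT1 had 26.3 and 13.8 FPKM around 18.02 FPKM (log2 fold change 0.078 ± 0.46 (SE), limma adjusted p 0.987). NXT2, a paralog of NXT1, had 5.67 and 3.91 FPKM, against 7.42 FPKM, the lowest log2 fold change of the 70 genes at -0.56.

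**Figure D3:**
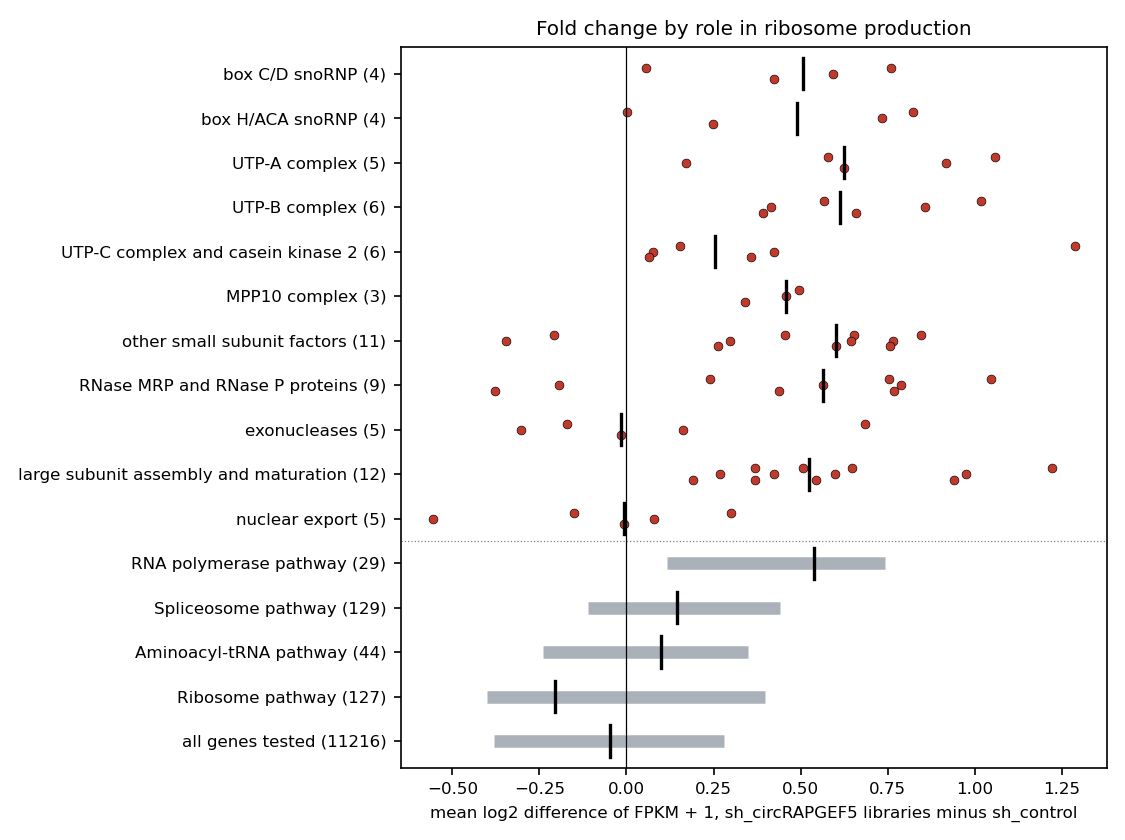
Mean log2 difference of FPKM + 1, knockdown libraries minus control, on a linear axis. Above the dotted line each red point is a ribosome biogenesis gene in its role; below it grey bars span the interquartile range of the genes of other sets, and black ticks are medians throughout, with gene numbers in brackets. Role medians lie between -0.015 for exonucleases and 0.62 for UTP-A.

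Roles differed in their medians, with 3 to 12 genes in each. The highest were the UTP-A complex at 0.62, the UTP-B complex at 0.61, other small subunit factors at 0.60, RNase MRP and RNase P at 0.56 and large subunit factors at 0.53. Box C/D, box H/ACA and MPP10 followed at 0.51, 0.49 and 0.46, then UTP-C with casein kinase 2 at 0.26. Exonucleases (-0.015) and nuclear export (-0.0081) were at the low end, near the median of all genes. Differences between the roles were not tested.

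The knockdown libraries were also set against each other, a comparison that does not use the control. Library 2 was above library 1 for 50 of the 70 genes (71.4%, against 51.1% of genes tested), with a median log2 difference of 0.20, against 0.02 over all genes tested. Differences of at least 1.5-fold were fewer than over all genes, with 7 of the 70 higher in library 2 (10%, against 13.8% of genes tested) and 3 higher in library 1 (4.29%, against 12.9%). The 70 genes had medians of 26.2 and 27.2 FPKM in knockdown libraries 1 and 2. Their lowest mean over the 3 libraries was 2.63 FPKM, while the genes tested reach down to a mean of 1 FPKM. No median FPKM was taken over all genes tested, so how far the levels differ is not given. The part of expression level in these shares was not tested. By role the median difference was 0.53 for UTP-A, 0.42 for other small subunit factors and 0.37 for UTP-B, and -0.44 for nuclear export. With 1 library on each side there is no test of these differences.

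**Figure D4:**
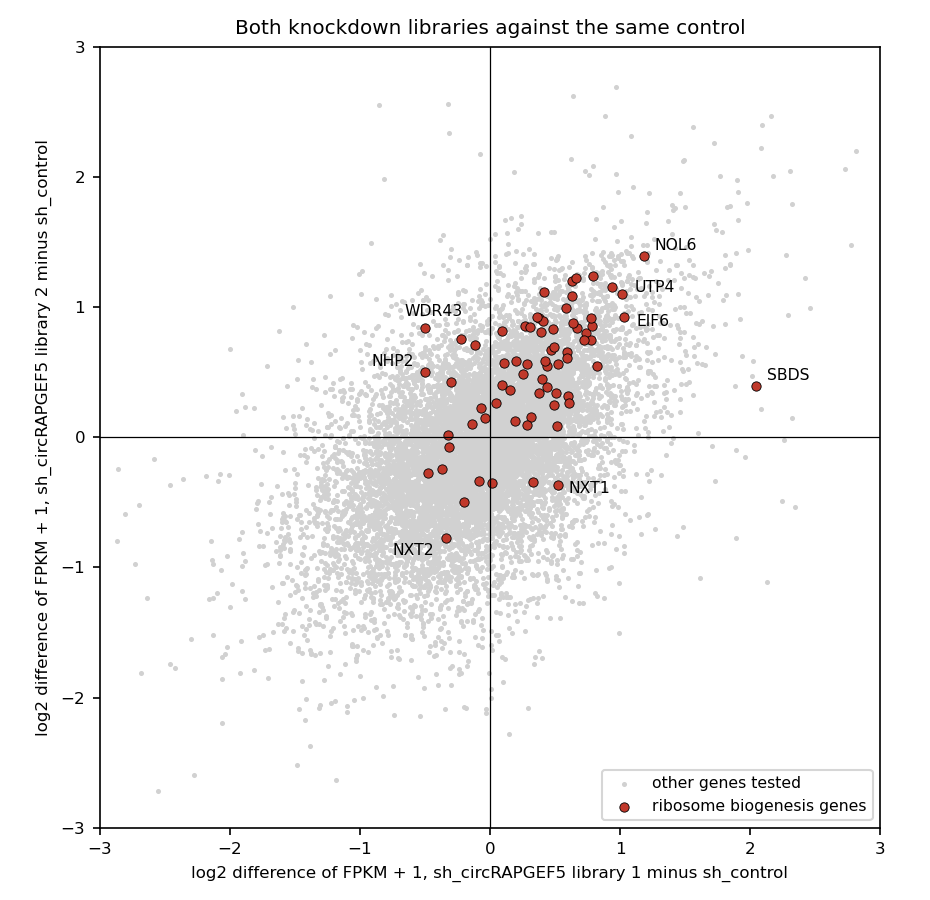
Log2 differences of FPKM + 1 from the control in knockdown library 1 (x axis) and library 2 (y axis). Red points are the 70 tested ribosome biogenesis genes and grey points 11146 other genes, of which 6 lie outside the axes. Both axes subtract the same control library, which by itself spreads points along the rising diagonal; 52 red points lie above 0 on both axes.

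Ribosome production also needs genes that the pathway entry does not list, and 4 lists of these were examined, with 34, 46, 15 and 14 tested genes (3 more names of the last are not in the table). The lists were chosen with earlier results of these data known, and their fold changes use the same control library. They are therefore not a separate check on the pathway genes. Higher in both libraries were 80 of the listed genes (73.4%, against 31.7% of all genes tested), and 7 were lower in both (6.42%, against 37.6%). A further 22 lay on both sides of the control (20.2%, against 30.7%), and the median log2 fold change over the 4 lists was 0.50. In limma 0 passed an adjusted p of 0.05, and 17 higher (15.6%, against 3.08% of all genes tested) and 0 lower genes (against 3.99%) had an unadjusted p under 0.05. Small subunit factors had the highest median, 0.67, with 26 of 34 higher in both. PNO1, a partner of NOB1, had 21.6 and 27.8 FPKM, against 9.78 FPKM, and PDCD11 and RRP12 had log2 fold changes of 1.18 and 1.05, while TSR2 (-0.40) and BUD23 (-0.26) were lower. Large subunit factors had a median of 0.51, with 35 of 46 higher in both. MAK16 had 36.9 and 45.9 FPKM, against 7.48 FPKM (limma unadjusted p 9.73e-05, adjusted p 0.173), and the helicase DDX18 and SURF6 had log2 fold changes of 1.30 and 1.24, while WDR18 (-0.51) and TMA16 (-0.094) were lower. The RNA exosome, the complex that degrades and trims RNA from the 3′ end, had a median of 0.46, with 10 of 15 higher in both. Its subunit EXOSC5 had 43.1 and 41.2 FPKM, against 11.3 FPKM (log2 fold change 1.81 ± 0.39 (SE), limma unadjusted p 0.000637, adjusted p 0.337). C1D and EXOSC7 had log2 fold changes of 1.51 and 0.97. RNA polymerase I and its factors had a median of 0.36, with 9 of 14 higher in both. The subunits POLR1E, POLR1B and POLR1C had 0.77, 0.75 and 0.74, while UBTF (-0.54), an activator of ribosomal RNA genes, and POLR1F (-0.42) were lower.

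Among the annotated pathways nearest in function, RNA polymerase had a median of 0.54, with 22 of 29 genes higher in both libraries (75.9%). Over all genes tested this share was 31.7%. The spliceosome had 0.15, with 65 of 129 (50.4%), and aminoacyl-tRNA biosynthesis 0.10, with 21 of 44 (47.7%). The ribosome pathway, which holds the structural proteins of the ribosome and not its assembly factors, had -0.20 (-0.096 in library 1 and -0.31 in library 2). In both libraries 39 of its 127 genes were higher (30.7%, near the 31.7% of all genes tested) and 66 lower (52.0%, against 37.6%). Its interquartile range ran from -0.40 to 0.40, so this median stands for a wide spread. Cytosolic and mitochondrial ribosomal proteins were not separated within this pathway. SNU13 is in both the spliceosome and the ribosome biogenesis lists. The RNA polymerase pathway and the RNA polymerase I list above have genes in common, POLR1C among them, so they are not separate sets. These medians were set side by side and their differences were not tested.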

How the data were processed

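The authors deposited FPKM values for 15625 genes in 3 mRNA libraries (TruSeq Stranded mRNA, per the labels' protocols), with pathway and GO names per gene. Trimmomatic, HISAT2 and GRCh38.p13 are named in the submitters' processing notes; the sources used here do not give versions, the counting program, the strand setting or the annotation. Smallest whole reads were recovered from the ratios of the FPKM values between libraries (100% of genes, relative tolerance 1e-12); true numbers may be larger.

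Genes with mean FPKM of at least 1 (11216) were fitted on log2(FPKM + 1) with limma 3.58.1 (R 4.3.3, mean-variance trend, Benjamini-Hochberg over all of them), 2 knockdown libraries against 1 control. This leaves 1 residual degree of freedom beside 10.92 prior ones that limma estimated; the lone control is assumed to vary like the knockdown libraries. As nothing says that the libraries came from separate cultures, p-values reflect their spread alone, which can be technical. The smallest p of an exact permutation test is 0.33.

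The genes, lists, compared pathways and motifs were chosen with earlier results of these data known. Every gene of the pathway may be named; SE and p are given for those at least 2-fold in both libraries or with an unadjusted p under 0.05, and for the 4 widest on opposite sides of the control; of other lists, the 3 highest and 2 lowest by the library nearer the control. Statistics of SBDS, EXOSC5 and MAK16 were added after their values were seen. Exon overlaps (either strand) and pseudogenes are from GENCODE v29, and promoters from RefSeq.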

Additional observations from a re-analysis of the deposited data

How the results depend on the processing

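Over 8 alternatives (pseudocounts of 0.1 and 5; a minimum of 5 FPKM or none; quantile normalization or median-ratio rescaling; limma with no trend or with 5 prior degrees of freedom), 0 ribosome biogenesis genes passed an adjusted p of 0.05, and the lowest adjusted p was 0.458. Their median log2 fold change stayed between 0.39 and 0.53. The median over all genes fitted moved too, between -0.060 (pseudocount of 0.1) and 0.032 (median-ratio rescaling). Genes called among all tested numbered 2; they became 1 with a pseudocount of 5, with median-ratio rescaling or without the trend, and 0 with no filter, quantile normalization or the prior of 5. Higher genes of the list with an unadjusted p under 0.05 became 11 under median-ratio rescaling. Those at least 1.5-fold higher in both libraries became 11 with a pseudocount of 5. For the unadjusted p and fold counts of this section, shares over all genes under the same setting were not counted. Leaving out 1 knockdown library leaves no residual degrees of freedom: the 1.5-fold count then lay between 22 (without library 2) and 34 (without library 1), the count 1.5-fold lower between 0 and 1 (NXT2, without library 1), and the median between 0.40 and 0.57. Over the 8 alternatives signs turned for 5 genes: CSNK2B (-0.094), FBL (-0.086) and NHP2 (-0.18) under quantile normalization, and RAN (0.083) and REXO1 (0.070) under median-ratio rescaling; the cause was not tested. Each of the 12 genes with the control between its knockdown values takes the other sign when 1 of the libraries is left out, by construction. No paired analysis was possible because the control has 1 library and no replicate number. The smallest log2 fold change of the 70 genes with an unadjusted p under 0.05 was 0.92 (WDR75), and 1.29 (NOL6) did not pass adjustment.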
